A study of Mus musculus with 33 samples.

Results

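The genes described here are the X-linked genes whose RNA could be assigned to parental alleles in a mouse embryonic stem (ES) cell line labelled RepB, followed through differentiation. RepB shares its name with Repeat B of Xist, the long noncoding RNA that silences an X chromosome, and the labels give neither the edit, the allele that carries it nor the number of clones. RNA was sequenced from RepB and from WT cells of the same CAST/Ei × 129/Sv/Jae hybrid background at days 0, 5, 6, 7, 8 and 10, with 1 library per line and day, and the other 21 of the 33 samples of the study were not analysed here. Both lines had been grown on irradiated feeder fibroblasts with LIF, separated from the feeders, kept in suspension as embryoid bodies and then plated on gelatin. A gene was a member if it lay on the X and had a mean of 20 or more allelic counts, the sum of the cas and mus counts, over the 6 RepB libraries. This left 298 of the 1063 X-linked genes in a table of 24391. Of the others, 434 had no allelic count in RepB and 331 were below the minimum. Tsix was just inside it, with a mean of 20.5 allelic counts, and Kctd12b and Rbm41 were just outside it with 19.8 each. The mean is of raw counts, so day 0, the deepest RepB library, weighs most in membership. Tsix had 95 allelic counts at day 0 and 28 over days 5 to 10 together, and Kctd12b had 1 and 118. The table names its alleles cas and mus, taken to be the CAST/Ei and 129/Sv/Jae chromosomes.

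In female mammals, Xist RNA coats the X chromosome that produces it and genes along that chromosome are shut down during early differentiation. Repeat B of Xist is known for recruiting Polycomb proteins, which modify histones on the coated X. In a hybrid line, single-base differences between the parental strains separate reads from each X, so a gene silenced on the mus X shows a growing cas share. Some genes, called escape genes, go on being transcribed from the silenced X.

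The RepB libraries held 3594551 to 6977752 counts at days 5 to 10 and 15231930 at day 0, of which 25.5% to 26.4% were allelic, and the members held 23702 to 112508 allelic counts per library. Shares are given only where a gene had at least 10 allelic counts in that library. Intervals on single shares are exact Clopper-Pearson 95% intervals and cover counting error only. The 9 naive pluripotency markers summed to 369 to 1341 CPM (an abundance corrected for library depth, here with TMM factors) at days 5 to 10 and 5651 CPM at day 0. Of these 9, 1 had a higher mean over days 5 to 10. The 10 markers of differentiated lineages summed to 384 to 1816 CPM at days 5 to 10 and 45.7 CPM at day 0. Of these 10, 8 had a higher mean over days 5 to 10, and the neural genes Sox1 and Pax6 a lower one. Hand1 alone held 1522 CPM of the sum at day 8. The 10 markers of fibroblasts and feeders summed to 65.4 CPM at day 5 and 14396 CPM at day 10, against 872 CPM at day 0, and 9 of the 10 had a higher mean over days 5 to 10. None of the 10 was at 0 at day 0. The part of these cell changes in the allelic shares was not tested. Over the 2706 to 2909 autosomal genes with a day 0 cas share of 25% to 75%, a choice that places day 0 near even expression, the median cas share was 49.5% to 50.7% in the RepB libraries. By chromosome it ran from 48% to 66.1% over the 8 autosomes with at least 50 such genes. In bulk RNA, fewer cells that express an allele and less RNA from it per cell cannot be told apart.

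Xist itself was produced mostly from the mus allele in RepB. Its summed counts reached 1152 to 1609.6 CPM at days 5 to 10, against 108 CPM at day 0. Reads over the whole gene cannot show whether Repeat B was missing, and the strand setting of the counting is not given in the sources used here, so reads of Xist and of its antisense partner Tsix cannot be told apart with certainty.

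The median X-linked gene of RepB had a higher cas share on each later day than at day 0, and stopped well short of full cas expression. The median cas share of the members stood at 51.0% on day 0, 62.2% on day 5, 66.2% on day 6, 70.4% on day 7, 75% on day 8 and 72.7% on day 10, with 262 to 293 members measured per library. The share of members at 75% cas or more was 2.05% at day 0, 20.6% at day 5 and 50.8% at day 8. The class at 90% or more held 0.341% of members at day 0, 4.96% at day 5 and 17.9% at day 8. Genes between 40% and 60% made up 68.9% of members at day 0 and 11.5% at day 8, but again 21.3% at day 10. Over days 5 to 10 the median had a slope of 2.25 percentage points per day, and an exact two-sided permutation test over the 120 orders of the 5 libraries gave p = 0.075, where the smallest possible p is 0.0167. Without day 10 the slope was 4.27 points per day (p = 0.0833, the smallest that 4 libraries can give in the exact test). Of the 254 members with shares on both days, 163 were lower at day 10 than at day 8. The sum of the fibroblast and feeder markers was 14396 CPM at day 10 and 3144 CPM at day 8. Its largest members at day 10 were Col1a1 (1953 cas and 1756 mus counts) and Col1a2 (2602 and 1184). Postn (50 and 3149) and Col3a1 (23 and 932) followed. At day 0 Col1a1 had 13 cas and 946 mus counts, Col1a2 177 and 767, Postn 14 and 32 and Col3a1 2 and 177. Of the 9086 autosomal genes past the same count minimum, 2916 had a day 0 cas share of 25% to 75%. Among the markers of differentiated lineages at day 6, T had 26 cas and 2290 mus counts and Mixl1 0 and 436. Eomes had 448 and 415, and Sox1 5 and 1. A mus excess was thus not particular to the fibroblast and feeder markers. Such an excess does not show the source of their RNA. The part of this marker signal in the lower shares was not tested.

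**Figure D1:**
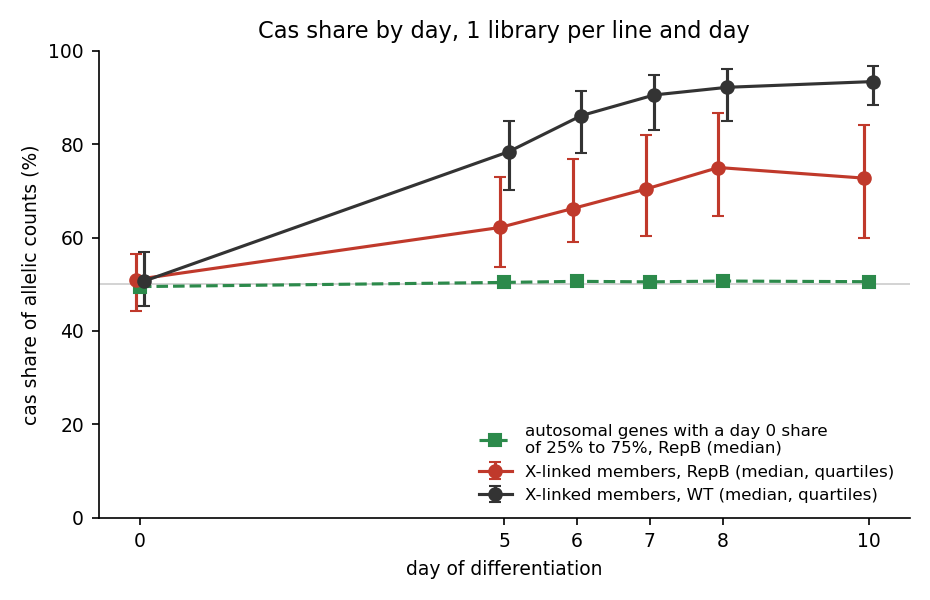
Median cas share (y axis, percent of allelic counts) against the day of differentiation (x axis) for the X-linked members in RepB and WT, with quartiles over genes as bars, and the RepB median of the autosomal genes with a day 0 cas share of 25% to 75%. The RepB median of the members reached 75% at day 8, and the median of these autosomal genes lay between 49.5% and 50.7%, with single chromosomes at 48% to 66.1%.

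Which genes took part was asked gene by gene with edgeR's quasi-likelihood test of the cas to mus ratio over days 5 to 10 against day 0, with each library as a block and Benjamini-Hochberg adjustment over 9384 genes of all chromosomes. An adjusted p under 0.05 was the threshold, and effects are log2 odds ratios, positive where the cas share was higher at days 5 to 10. Of the 298 members, 109 gained cas share. That is 36.6%, against 2.57% of all 9384 genes and 1.23% of the 2916 autosomal genes that began with a cas share of 25% to 75%. None lost cas share in this test (1.28% of all genes did), and at an unadjusted p under 0.05 the counts were 189 gaining and 1 losing. Of all 9384 genes, 731 gained and 379 lost at that unadjusted p. Without day 10, edgeR called 1 loss, that of Rps4x. In all, 281 members had a positive odds ratio. Day 0 was 1 library and the error comes from the spread among the 5 later days of 1 course, so these p-values do not cover variation between cultures or clones. DESeq2 called 9 gains and no loss, with a median standard error of 0.903 against 0.439 in edgeR for these genes, and 71 of the 109 were called by edgeR whichever later day was left out.

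The gained genes covered a broad range of final shares. Their median mean share over days 5 to 10 was 79.8%. Of the 109, 96 had at least 10 allelic counts in each of the 6 libraries. All 96 were above their day 0 share on each of the 5 later days, which the call of a gain favours. Maged2, a member of the MAGE family, was among the gained genes with the highest final shares. Its cas share was 57.3% on day 0, then 90.9%, 89.8%, 96.2%, 95.5% and 95.3% on days 5, 6, 7, 8 and 10, with a log2 odds ratio of 3.57 ± 0.33 (SE) and an edgeR adjusted p of 6.97e-24. Msn encodes moesin, which ties the actin cytoskeleton to the plasma membrane. Its cas share was 50.3% at day 0 and 74.6%, 82.0%, 88.5%, 87.5% and 89.3% on the later days, which gave a log2 odds ratio of 2.45 ± 0.27 and an edgeR adjusted p of 1.65e-17. Both genes were already far above their day 0 share on day 5. DESeq2 called Maged2 but not Msn. Amot encodes angiomotin, a scaffold of cell junctions. It had shares of 43.5% at day 0 and 76.8%, 86.0%, 87.7%, 87.7% and 82.7% later, with an odds ratio of 2.96 ± 0.44 on the log2 scale. Bex1, named for its expression in brain, had 82.2% to 90.2% at days 5 to 10 and 53.5% at day 0. Armcx2, an armadillo-repeat gene, had 84.7% to 95.1% at days 5 to 10 and 60.7% at day 0. For all 3 the later days lay clear of day 0. DESeq2 called Amot and Bex1 but not Armcx2.

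Gains at other abundant genes were smaller and ended well short of full cas expression. Flna encodes filamin A, a crosslinker of actin filaments, and had the most allelic counts of any member, a mean of 2765 per library. Its cas share was 46.1% at day 0 and 61.1%, 61.3%, 64.4%, 66.2% and 63.0% later, with a log2 odds ratio of 1.01 ± 0.19 and an edgeR adjusted p of 2.23e-05. The 5 later days differed from day 0 by more than they differed from each other. DESeq2 did not call Flna. Regulators in the nucleus and enzymes were among the other abundant gained genes. Huwe1, a ubiquitin ligase, averaged 70.9% ± 6.16 (SD, n = 5 days) over days 5 to 10 and 52.2% at day 0. Hcfc1, a co-regulator of transcription, averaged 66.8% ± 7.35 over days 5 to 10 and 52.2% at day 0. Atrx, a chromatin remodeller, averaged 65.9% ± 4.21 over days 5 to 10 and 51.0% at day 0. These 3 genes began near even expression. Alg13, an enzyme of N-linked glycosylation, averaged 60.8% ± 5.07 over days 5 to 10 and 42.4% at day 0. Maged1, another MAGE gene, averaged 74.4% ± 8.49 over days 5 to 10 and 43.8% at day 0. Alg13 and Maged1 began on the mus side. All 5 genes passed the edgeR test, and DESeq2 called none of them. With TMM factors over the allele columns, edgeR did not call Hcfc1, Atrx or Alg13. The call for Hcfc1 was lost without day 7 or without day 8, and that for Atrx without day 8 or without day 10.

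The largest odds ratios belonged in part to genes with few allelic counts on some days. Fndc3c1, a gene of fibronectin type III repeats, had 90.7% to 97.6% cas at days 5 to 10 and 57.9% at day 0, day 0 from 19 allelic counts. Mum1l1, a PWWP-domain gene, had 76.1% to 93.6% at days 5 to 10 and 34.4% at day 0, day 0 from 32 counts. Both lay above day 0 on every later day, from a day 0 value of low depth. Capn6, of the calpain family, had a mean of 89.7% ± 5.86 over 4 later days and 41.7% at day 0. Mageh1, another MAGE gene, had a mean of 90.3% ± 11.3 over 4 later days and 40.8% at day 0. Slc38a5, an amino acid transporter, passed the test but had under 10 allelic counts on every later day. Cxx1c had 93.4% to 100% at days 5 to 10 and 66.7% at day 0, and has close relatives on the X that could share its reads. The call for Slc38a5 was lost without day 6, 7 or 10, that for Cxx1c without day 5, 7, 8 or 10. These 2 calls thus rest on few counts or on single days. Altogether 14 members averaged 90% or more over days 5 to 10, and 9 of them had gained. Fam199x and Mtap7d3, a microtubule-associated protein gene, were among these 9, Fam199x with 90.4% ± 4.15 over days 5 to 10 and 61.9% at day 0, and Mtap7d3 with 94.1% ± 4.43 over days 5 to 10 and 81.0% at day 0. The call for Mtap7d3 was lost without day 5.

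The promoters of Msn and Armcx2 are shown because they are a CpG-rich and a CpG-poor start among the gained genes that reached high cas shares. Each covers 250 bases before to 50 bases after the start, 5′ to 3′ on the gene's strand, with CG dinucleotides in capitals. The sequences are RefSeq's for GRCm38.p6, a later build than the mm9 of the counts. Msn (plus strand, chrX:96095795-96096094) holds 21 CG and Armcx2 (minus strand, chrX:134809172-134809471) holds 4.
Msn: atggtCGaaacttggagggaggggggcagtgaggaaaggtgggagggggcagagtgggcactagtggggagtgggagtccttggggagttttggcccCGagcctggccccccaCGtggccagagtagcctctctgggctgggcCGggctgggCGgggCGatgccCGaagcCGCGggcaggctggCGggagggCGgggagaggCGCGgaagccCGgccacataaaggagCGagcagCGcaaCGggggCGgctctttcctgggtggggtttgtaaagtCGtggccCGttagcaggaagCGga
Armcx2: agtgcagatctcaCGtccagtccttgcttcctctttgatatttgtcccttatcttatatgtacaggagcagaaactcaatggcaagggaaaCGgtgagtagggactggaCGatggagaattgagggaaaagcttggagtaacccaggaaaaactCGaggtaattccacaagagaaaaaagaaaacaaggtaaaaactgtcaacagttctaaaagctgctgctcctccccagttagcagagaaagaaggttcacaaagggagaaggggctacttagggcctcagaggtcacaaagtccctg

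A smaller set of genes stayed near equal expression of both alleles. Balanced was defined as not called, with at least 10 allelic counts in each of the 6 libraries and a cas share of 40% to 60% both at day 0 and as the mean of days 5 to 10, and 33 members met this. Their median mean share was 56.5% over days 5 to 10 and 47.8% at day 0. Balanced is a range and does not mean unchanged: 7 of the 33 had an unadjusted p under 0.05 for a gain, and the upper 95% limits of their log2 odds ratios ran from 0.67 to 1.94. With 35% to 65% as the range there were 66 such genes, and with at least 30 counts in each library 19.

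Uba1, which encodes the enzyme that starts the ubiquitin cascade, had the most counts among them. Its cas share was 47.5% at day 0 and 54.5%, 56.3%, 56.9%, 58.5% and 56.0% later, a log2 odds ratio of 0.52 with a 95% interval of 0.08 to 0.95 and an edgeR adjusted p of 0.252. Each later day was above day 0 by a small margin. Nono, an RNA-binding protein of paraspeckles, had 44.5% at day 0 and 54.3%, 54.3%, 52.4%, 52.7% and 48.2% later (log2 odds ratio 0.47, interval -0.01 to 0.94). Utp14a, a factor in the assembly of the small ribosomal subunit, had 45.1% at day 0 and 38.0%, 50.2%, 51.4%, 50.2% and 53.9% later (0.17, interval -0.34 to 0.67). Utp14a was below its day 0 share at day 5 and above it afterwards. Ogt, which attaches N-acetylglucosamine to nuclear and cytoplasmic proteins, had 53.7% to 59.3% at days 5 to 10 and 49.4% at day 0. Ddx3x, an RNA helicase, had 54.3% to 62.5% at days 5 to 10 and 54.7% at day 0. For Ddx3x the later days overlapped the starting value.

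The other abundant balanced genes kept within a similar band. Bcap31, a chaperone of the endoplasmic reticulum, had 52.8% ± 4.65 over days 5 to 10 and 43.0% at day 0. Hprt, of purine salvage, had 57.4% ± 6.83 over days 5 to 10 and 41.2% at day 0, and its highest later share was 64.0%. Hprt thus exceeded 60% on single days, while its mean lay within the range. Ftsj1, a tRNA methyltransferase, had 55.8% ± 4.94 over days 5 to 10 and 40.4% at day 0. The cold-inducible RNA-binding protein gene Rbm3 had 53.6% ± 5.84 over days 5 to 10 and 41.8% at day 0. Pqbp1, which takes part in splicing, had 59.2% ± 4.33 over days 5 to 10 and 50.1% at day 0. Pnma5, a gene of the paraneoplastic antigen family, had 54.3% ± 6.94 over days 5 to 10 and 55.5% at day 0, the only one of these 6 with a lower later mean. Bcap31, Hprt, Ftsj1 and Rbm3 began on the mus side of 50% and were on the cas side in the later mean. The classes overlap in effect size: log2 odds ratios ran from -0.05 to 0.92 in balanced genes and from 0.63 to 10.05 in gained genes.

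Utp14a and Nono are given as the balanced counterparts of the promoters above, in the same layout. Utp14a (plus strand, chrX:48256684-48256983) holds 21 CG, the same number as Msn, and Nono (plus strand, chrX:101429401-101429700) holds 23.
Utp14a: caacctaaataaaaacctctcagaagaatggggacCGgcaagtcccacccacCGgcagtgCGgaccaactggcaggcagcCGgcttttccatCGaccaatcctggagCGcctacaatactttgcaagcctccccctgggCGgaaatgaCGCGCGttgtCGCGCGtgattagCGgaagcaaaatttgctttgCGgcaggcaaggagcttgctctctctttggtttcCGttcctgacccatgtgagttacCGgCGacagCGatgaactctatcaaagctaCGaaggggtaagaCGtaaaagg
Nono: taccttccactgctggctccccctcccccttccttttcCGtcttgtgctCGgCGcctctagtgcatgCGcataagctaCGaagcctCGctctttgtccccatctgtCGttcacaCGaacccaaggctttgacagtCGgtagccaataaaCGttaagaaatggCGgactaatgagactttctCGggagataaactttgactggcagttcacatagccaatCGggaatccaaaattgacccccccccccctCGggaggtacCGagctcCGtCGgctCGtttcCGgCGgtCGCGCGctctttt
Over the genes with a RefSeq promoter, the median number of CG was 17 in gained genes (88.1% matched) and 21 in balanced genes (87.9% matched). In the remaining genes, of which a smaller share was matched (76.3%), it was 14. All members had 17 (81.9% matched) and all 27025 promoters of the table had 7. These counts were not tested.

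**Figure D2:**
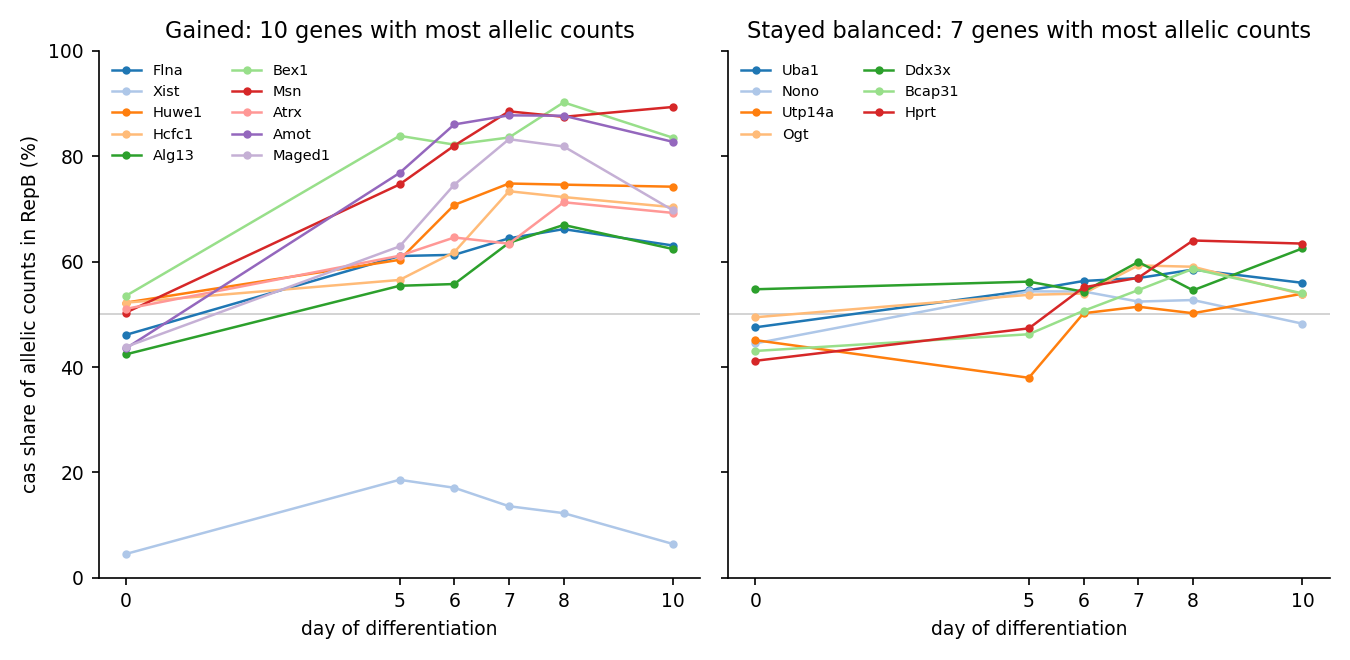
Cas share (y axis, percent of allelic counts) by day (x axis) in RepB for the 10 gained and the 7 balanced genes with the most allelic counts, 1 line per gene and 1 library per day. Msn, Bex1 and Amot exceed 80% from day 6 on, the highest balanced value is 64.0% (Hprt, day 8), and Xist lies below 20%.

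The remaining 156 members were neither called nor balanced by this rule. They carried fewer counts, with a median of 52.7 allelic counts per library, against 99.2 in gained and 97.3 in balanced genes. Their median mean share was 66.4% over days 5 to 10 and 53.2% at day 0, and 73 of the 156 were above their day 0 share on all 5 later days. Genes with under 10 allelic counts in any library could not be among these 73. Idh3g, a subunit of mitochondrial isocitrate dehydrogenase with a mean of 800 allelic counts, had 51.6% at day 0 and 55.5%, 57.8%, 63.0%, 67.0% and 67.4% later, with an edgeR adjusted p of 0.241. Its share was higher on each successive day, and the later days differed widely from each other. Dkc1, which encodes the pseudouridine synthase dyskerin, had 53.4% to 62.7% at days 5 to 10 and 60.1% at day 0, with a mean of 884 allelic counts.

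Counts of each allele, scaled by library total with TMM factors, showed lower mus output and somewhat higher cas output at days 5 to 10 than at day 0. Summed over the members other than Xist, mus CPM at days 5, 6, 7, 8 and 10 were 0.738, 0.633, 0.538, 0.512 and 0.557 of the day 0 value, a mean of 0.596 ± 0.092 (SD, n = 5 days). The cas sum was 1.05, 1.10, 1.15, 1.24 and 1.24 of its day 0 value, a mean of 1.16 ± 0.083. Summed over the autosomal genes with a day 0 cas share of 25% to 75%, the means were 0.937 ± 0.032 for mus and 0.976 ± 0.029 for cas. The median log2 change of mus counts was -1.29 in gained, -0.28 in balanced and -0.81 in the remaining genes. That of cas counts was 0.66, 0.16 and -0.04 in the same order. The classes were defined by the ratio of these counts in the same libraries. The differences between the class medians are thus in part set by that choice and are a description. Single genes rarely passed the test on 1 allele, where the biological coefficient of variation between libraries was 38.5% for mus and 38.3% for cas, against 11.2% for the ratio within libraries. By edgeR's quasi-likelihood test with Benjamini-Hochberg adjustment, mus counts fell for 6 members (2.01%, against 0.906% of all genes tested) and rose for 1 (0.336%, against 0.171%), Xist. The 6 were Msn, with a log2 change of -1.94 ± 0.23, Rlim (-1.59), which encodes a ubiquitin ligase that activates Xist, Klhl13 (-2.38), an adaptor of Cullin-3 ubiquitin ligases, Armcx1 (-2.05), Prps1 (-2.84), an enzyme of nucleotide synthesis, and Syn1 (-5.01), a protein of synaptic vesicles. The cas counts rose for 8 members (2.68%, against 0.469% of all genes), Amot, Fndc3c1, Mum1l1 and Xist among them, and fell for 7 (2.35%, against 1.19%). Among the 2916 autosomal genes with a day 0 cas share of 25% to 75%, cas counts rose for 0.754% and fell for 2.78%. The share of members with falling cas counts was thus not above that of these autosomal genes. Their mus counts fell for 0.754% and rose for 0.0343%. Armcx1, Prps1 and Syn1 were picked out after their values were seen. Without day 5 there were 21 mus falls, 28 cas rises and 17 cas falls. Without day 6, 7 or 8 no mus count fell in the edgeR test, and without day 10 there were 20 cas rises and 12 cas falls. Shares of all genes were not computed for the fits without a day, so these counts have no background beside them.

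**Figure D3:**
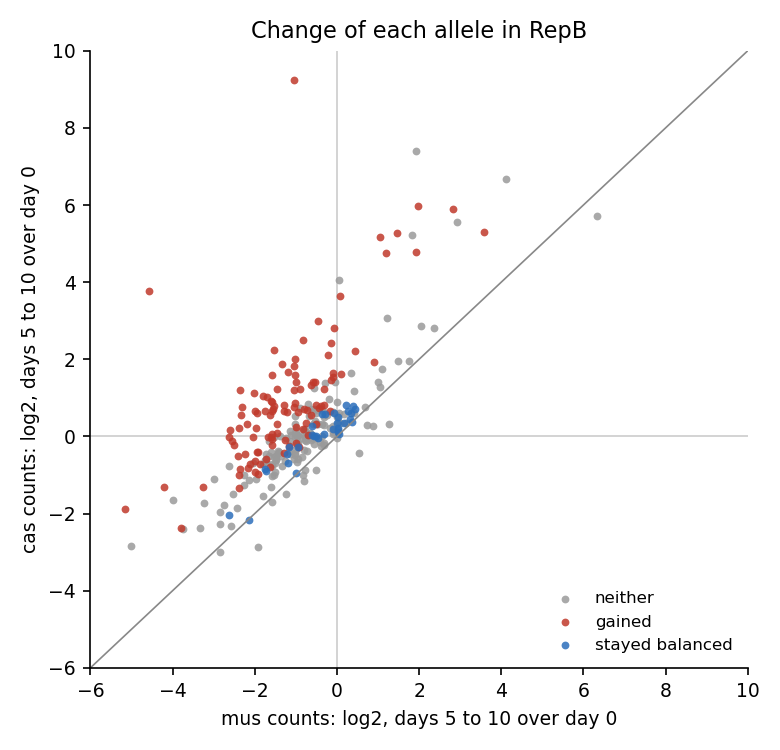
Log2 change of cas counts (y axis) against log2 change of mus counts (x axis), days 5 to 10 over day 0 in RepB, 1 point per member. Gained genes lie above the diagonal, 98 of the 109 with lower mus counts, and balanced genes lie near it. The classes were defined by the ratio of the same counts, so these places are in part set by that choice.

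Few genes could be shown to move further between days 5 and 10. The edgeR slope test over these 5 libraries called 4 members higher (1.34%, against 0.181% of all genes) and 1 lower (0.336%, against 0.117%). At an unadjusted p under 0.05, 42 of the 298 members were higher and 3 lower. Of all 9384 genes, 250 were higher and 258 lower at that p. Pola1, the catalytic subunit of DNA polymerase alpha, had 59.2%, 64.8%, 73.6%, 85.3% and 92.6% cas at days 5, 6, 7, 8 and 10. Its log2 odds rose by 0.60 ± 0.16 (SE) per day with an edgeR adjusted p of 0.0433, and its day 0 share was 50.1%. Pfkfb1, an enzyme that sets the level of fructose 2,6-bisphosphate, had 38.9%, 71.9%, 85.7%, 88.6% and 92.9% over the same days and 31.0% at day 0, from 18 to 35 counts on the later days. Both climbed on each day sampled. Msn had a slope of 0.29 ± 0.07 per day. Bex4 began at 79.8%, lay at 53.5% at day 5 and at 69.7%, 86.6%, 86.4% and 84.1% after that, so its climb led back to the starting share. The calls for Pola1 and Pfkfb1 were lost whichever day was left out, that for Msn held only without day 7, and that for Bex4 was lost only without day 5. The gain of Pola1 was also lost without day 7, 8 or 10.

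The lower call was Xist. In RepB its cas share was 4.54% on day 0, then 18.6%, 17.1%, 13.6%, 12.3% and 6.42% on the later days, while WT cells had 1.89% to 4.32% at days 5 to 10 and 3.19% at day 0. The exact intervals in RepB were 17.0% to 20.3% at day 5 and 5.14% to 7.90% at day 10, and at day 0 the interval was 2.79% to 6.92%. The cas odds of Xist fell by 0.34 ± 0.05 per day on the log2 scale after day 5 (edgeR adjusted p = 1.7e-07), while against day 0 they were higher by 1.68 ± 0.32. The fall was no longer called without day 10. Xist is 1 of the 109 gained genes although its cas share stayed below 20%, and the other 108 are spread over the chromosome. Over days 5 to 10 the log2 odds of cas in RepB were above those in WT by 2.43 ± 0.22 (edgeR adjusted p = 2.2e-08). That p-value rests on the spread among days of 1 course per line and does not cover variation between clones. Counts on the cas side were 82 to 399 in the later RepB libraries and 20 at day 0.

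**Figure D4:**
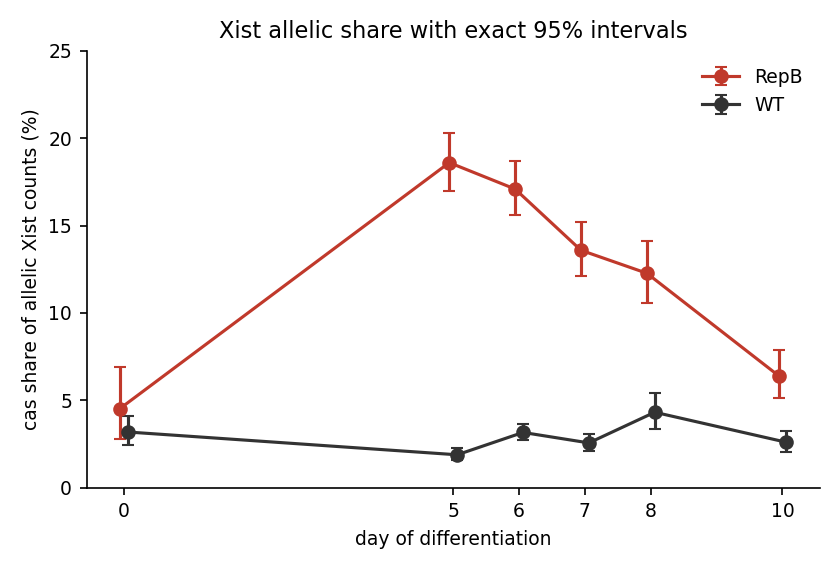
Cas share of Xist counts (y axis, percent) by day (x axis) in RepB and WT, with exact Clopper-Pearson 95% intervals as bars. RepB lies at 18.6% at day 5 and 6.42% at day 10, and WT between 1.89% and 4.32%.

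Of the 33 balanced genes, 19 lay in a pair of stretches of the chromosome. Positions are mm9 coordinates of the first exon listed for each gene. Between 7 and 8 Mb, 25 members had a median mean share of 62.3% over days 5 to 10 and 53.0% at day 0, with 3 gained and 7 balanced genes. Between 70 and 73 Mb, around Flna, 37 members had 60.5% over days 5 to 10 and 51.0% at day 0, with 8 gained and 12 balanced. The later median in both windows stayed below that of all members. These 2 windows held 62 members. Between 10 and 20 Mb, 12 members had a median of 61.0% over days 5 to 10 and 52.0% at day 0, with no gained and 4 balanced genes. Between 130 and 150 Mb, 59 members had 76.3% over days 5 to 10 and 53.1% at day 0, with 33 gained and none balanced. Between 90 and 110 Mb, the stretch that holds Xist at chrX:100655712-100663375 (its first listed exon), 56 members had 76.0% over days 5 to 10 and 50.2% at day 0, with 32 gained. Nono and Ogt, close to Xist, were the 2 balanced genes there. In WT the median mean shares of the windows at 7 to 8, 70 to 73, 130 to 150 and 90 to 110 Mb were closer together, at 87.5%, 85.1%, 88.9% and 89.9% in that order, and that of the 10 to 20 Mb window was 85.9%. The windows were picked after the values were seen, so these are descriptions without a test.

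Distance from Xist separated the classes less clearly. Gained genes lay a median of 34.8 Mb from Xist, balanced genes 55.0 Mb and the remaining genes 46.8 Mb. Across 291 members with both values, Spearman's rho between distance and the gain in cas share was -0.18. The gain here was the mean later share minus the starting share, in percentage points. This rho is a description across genes of the same libraries. Near 45 Mb, Utp14a and Zdhhc9, a palmitoyltransferase gene, were balanced among 7 members of which the other 5 gained.

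**Figure D5:**
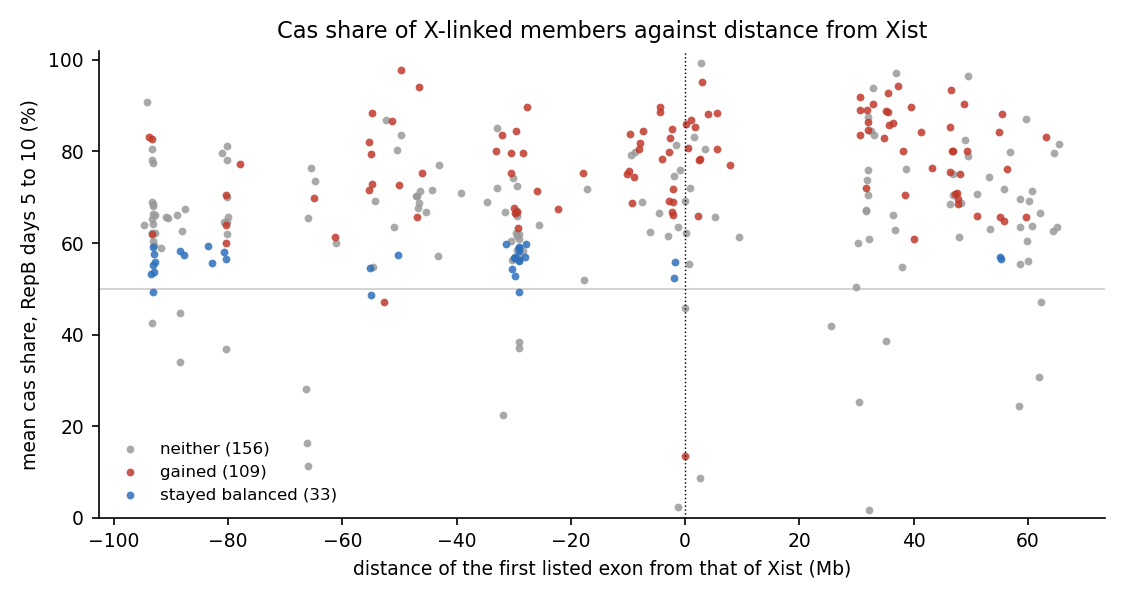
Mean cas share over days 5 to 10 in RepB (y axis, percent) against the distance of each member's first listed exon from that of Xist in mm9 (x axis, Mb), for the 296 members with a mean share. Many balanced genes stand in the 2 columns of points at 7 to 8 Mb and 70 to 73 Mb of the chromosome, left of Xist, and the columns on the right hold many gained genes.

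Groups of genes by function were read as counts, beside 36.6% gained over all members. Of 7 members of the X-inactivation centre, the region around Xist, 3 gained and none was balanced. Xist and Rlim were among the gained ones, and Rlim had 78.6% to 82.8% at days 5 to 10 and 59.4% at day 0. Of 10 known escape genes, 1 gained, 3 were balanced and 6 were neither, with a median mean share of 59.4% over days 5 to 10 and 50.5% at day 0. The balanced ones were Ddx3x, Utp14a and the histone demethylase gene Kdm6a, with 55.6% ± 3.58 over days 5 to 10 and 50% at day 0. Firre, a long noncoding RNA, was the gained one and still lay near equality, with 47.1% ± 5.55 over days 5 to 10 and 28.4% at day 0. Its call was lost without day 6 or without day 7. Kdm5c, another histone demethylase, had 61.4% ± 4.50 over days 5 to 10 and 51.0% at day 0 and was not called.

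Of 7 members tied to the ES cell state or to signalling that differs between ES cells with 1 and 2 X chromosomes, 4 gained and none was balanced. Dusp9, a phosphatase of MAP kinases, had 48.3% at day 0 and 58.8%, 68.8%, 74.6%, 69.7% and 61.4% later, with a log2 odds ratio of 1.14 ± 0.28 and an edgeR adjusted p of 0.00184. Klhl13 had 73% to 79.8% at days 5 to 10 and 62.4% at day 0. Tfe3, a transcription factor, had 55.3% to 70.3% at days 5 to 10 and 49.8% at day 0, and its call was lost without day 6, 7, 8 or 10. The other gained gene was Amot. Nr0b1 and Eras, which mark or sustain pluripotent cells, had too few counts at day 10 for a share.

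Of 20 genes of chromatin and transcription, 10 gained, 2 were balanced and 8 were neither. Bcorl1, a transcriptional corepressor, had 79.4% ± 8.82 over days 5 to 10 and 37.6% at day 0 (log2 odds ratio 2.68 ± 0.50). Smc1a, a cohesin subunit, had 68.5% ± 7.16 over days 5 to 10 and 49.8% at day 0 (log2 odds ratio 1.09 ± 0.28). The 2 balanced ones were Ogt and Brcc3, a deubiquitinase. Of 13 genes of translation and RNA handling, 2 gained and 2 were balanced. The gained ones were the initiation factor gene Eif1ax, with 65.7% ± 10.2 over days 5 to 10 and 50% at day 0 (not called without day 7), and the splicing regulator gene Rbmx, with 75.3% ± 9.85 over days 5 to 10 and 39.3% at day 0. Nono and Rbm3 were balanced.

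Of 17 genes of mitochondria and metabolism, 8 gained, 2 were balanced and 7 were neither. Pdha1, a subunit of pyruvate dehydrogenase, had 42.0% at day 0 and 59.9%, 61.7%, 67.3%, 72.4% and 62.7% later (log2 odds ratio 1.30 ± 0.22, edgeR adjusted p = 3.74e-07). Hsd17b10, a mitochondrial dehydrogenase, had 69.5% ± 12.6 over days 5 to 10 and 32.8% at day 0. Hprt and Timm17b, of the mitochondrial import machinery, were balanced. Of 22 genes of membrane, cytoskeleton and signalling, 10 gained, 5 were balanced and 7 were neither. Besides Msn and Flna the gained ones included Efnb1, an ephrin ligand, with 88.5% ± 13.1 over days 5 to 10 and 51.7% at day 0, Gpc4, a glypican, with 86.7% ± 7.66 and 62.0% (not called without day 6), and Ubqln2, a ubiquitin-binding protein gene, with 80.2% ± 6.35 and 53.5%. The 5 balanced ones were Uba1, Pqbp1, the semaphorin receptor gene Plxna3, the NF-κB regulator gene Ikbkg and Vbp1, of the prefoldin complex.

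Against WT, the cas share over days 5 to 10 was lower in RepB for 141 members (47.3%, against 1.57% of all genes) and higher for 1 (0.336%, against 0.0959%), Xist, by edgeR's quasi-likelihood test with Benjamini-Hochberg adjustment. Each line was 1 course with 1 library per day. The p-values against WT thus rest on the spread among days and do not cover variation between cultures or clones. By class the lower share was called for 49 of the 109 gained genes, 26 of the 33 balanced genes and 66 of the 156 others. The median difference of mean shares, RepB minus WT, was -11.0 points in gained, -26.1 points in balanced and -17.2 points in the remaining genes. The classes were defined by the RepB shares at these days, so the order of the classes in these counts and medians is in part set by that choice and is a description. The 33 genes that were balanced in RepB had a median mean share of 82.4% in WT. The lowest of these WT means was 60.5%, that of Pnma5. Gained genes that did not pass this test included Maged2, with 93.5% ± 2.96 in RepB and 95.6% ± 2.05 in WT, Bex1, with 84.7% ± 3.17 in RepB and 89.8% ± 7.45 in WT, and Gnl3l, a nucleolar GTPase gene, with 80.1% ± 6 in RepB and 87.6% ± 4.79 in WT. For Maged2 the log2 odds ratio of RepB over WT was -0.56 ± 0.32 (edgeR adjusted p = 0.864), and its 95% interval of -1.22 to 0.09 spans equality. Across the 291 members, Spearman's rho between the mean shares in both lines over days 5 to 10 was 0.71, a description across genes. The direct test of the difference in gain called 3 members lower and none higher (1.01% and 0%, against 0.0426% and 0.0213% of all genes), and 146 and 1 at an unadjusted p under 0.05. Of all 9384 genes, 355 were lower and 115 higher at that unadjusted p. With each day as a block the direct test called 82 lower and 1 higher, Xist (1.07% and 0.202% of all genes). Without a day block, leaving out day 5 gave 79 lower calls, day 8 gave 5 and day 10 gave 6. DESeq2 called none in either direction.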

How the data were processed

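Counts per gene were deposited by the authors without normalization, in total and as reads assigned to the cas and mus alleles. Per the submitters' processing notes, mm9, Novoalign, TopHat, SAMtools, bedtools and featureCounts were used, with roles, versions and strand setting not given in the sources used here. The only other unit in the deposited table is gene length, in bases of exon. The table held 6 count columns with no matching sample, which were not used.

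Columns were matched to samples by line and day. Cas and mus counts entered edgeR 4.0.16 (R 4.3.3) quasi-likelihood fits as 2 columns per library with the library as a block, over the 9384 genes with a mean of 20 or more allelic counts in RepB. The gain fit had 4 residual degrees of freedom, the slope fit 3 and the fits with WT 8. Counts of 1 allele used total counts and TMM factors. Of these fits, only the gain fit was tested on simulated data. There it called 40% of 60 genes with a true log2 odds ratio of 1, 87.7% of 73 with 2 and 98.5% of 67 with 3. Of 9184 unchanged genes it called 0.0436%. The simulation gave every gene the same dispersion and no trend over days 5 to 10, so these rates may not hold for the real counts. In the real counts the gain fit called 1.23% higher and 0.926% lower of the 2916 autosomal genes with a day 0 cas share of 25% to 75%. DESeq2 1.42.0, other count minimums, TMM over allele columns, fewer autosomal genes, other forms of the day term and leaving out each of days 5 to 10 were tried as alternatives. Shares and the exact permutation test used Python 3.11.15 and scipy 1.17.1.

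Genes were named by rule: the 10 gained genes with the highest odds ratio and the 10 with the most counts, the 12 balanced genes with the most counts, genes past the slope test, up to 6 genes each that were off balance at day 0, gained to 90% or more, differed most from WT or gained without differing from WT, the list members, and the 2 genes on each side of the minimum. Members and lists were chosen with earlier results of these data known. A few genes that meet the rule are not reported here.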

Additional observations from a re-analysis of the deposited data

Results flagged for a closer look

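For 3 genes the gain over days 5 to 10 against day 0 itself differed between RepB and WT by the test of the difference, and all 3 gained less in RepB. Flna differed by -3.24 ± 0.45 on the log2 odds scale (edgeR adjusted p = 0.000248), with 61.1% to 66.2% cas at days 5 to 10 in RepB and 90.1% to 96.7% in WT. Its day 0 shares were 46.1% in RepB and 47.6% in WT. Tspan7, a tetraspanin gene, differed by -3.80 ± 0.73 (edgeR adjusted p = 0.0272), with 54.5% to 76.9% at days 5 to 10 in RepB and 89.4% to 98.3% in WT. Its day 0 shares were 56.1% in RepB and 41.7% in WT. Ccdc22, a gene of endosomal sorting, differed by -2.88 ± 0.58 (edgeR adjusted p = 0.0369), with 42.2% to 65.6% at days 5 to 10 in RepB and 81.6% to 95% in WT. Its day 0 shares were 53.6% in RepB and 49.8% in WT. The later days of RepB and WT did not overlap for any of the 3. With 1 course per line, these p-values rest on the spread among days and do not cover variation between cultures or clones. The call for Ccdc22 was lost without day 7 (edgeR adjusted p = 0.116). Those for Tspan7 and Ccdc22 were lost in edgeR at a mean of 50 counts (adjusted p = 0.0506 for Tspan7 and 0.0735 for Ccdc22) and with autosomal genes restricted to day 0 shares of 25% to 75% (0.0714 for both). DESeq2 called none of the 3, with adjusted p = 0.164 for Flna and 0.9998 for the other two.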

How the results depend on the processing

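The gain of cas share in RepB was called for 78 to 121 members in the edgeR alternatives over the same members (109 in the values reported; 89 to 113 without 1 later day) and for 85 where the minimum was a mean of 50. DESeq2 called 9, and 21 with autosomal genes restricted to day 0 shares of 25% to 75%. A loss was called for 1 member with TMM factors over the allele columns and 1 with restricted autosomal genes (0 to 1 without a day). The slope test called 0 members higher under DESeq2 (0 to 3 higher and 0 to 1 lower without a day). A smaller gain than in WT was called for 1 member at a mean of 50 counts, 10 at a mean of 5, 0 by DESeq2, 47 with TMM factors, 1 with restricted autosomal genes and 82 with each day as a block (2 to 79 without a day, 62 to 92 with the block). A larger gain was called for 1 member with the block (0 to 2 without a day). A cas share below WT was called for 257 members with TMM factors (112 to 168 without a day, block or not). Mus counts fell for 2 members at a mean of 5, 30 by DESeq2 and 3 with no factors (0 to 21 without a day), and rose for 0 to 1 without a day. Cas counts rose for 17 by DESeq2 (6 to 28 without a day) and fell for 4 at a mean of 50 and 2 by DESeq2 (2 to 17 without a day). Balanced genes numbered 66 at 35% to 65% and 19 with at least 30 counts per library (30 to 37 without a day). The cause of these changes was not tested, except that a higher minimum leaves fewer members. Apart from the gain against WT with the day block, shares of all genes are not given for these settings. Of the tested values of single genes, 546 kept their direction and call, 189 kept the direction without the call and 0 changed sign. Of 95 mean shares of named balanced genes without 1 later day, 5 exceeded 60%, those of Pqbp1 (60.4% without day 8), Vbp1 (61.8% without day 6, 64.8% without day 8) and Ikbkg (60.1% without day 5, 62.3% without day 6). The day blocks, the straight line over days and DESeq2 with restricted autosomal genes were added after seeing the data. No paired analysis was possible because of replicate numbers, which pair nothing here with 1 library per line and day; RepB and WT were paired by day instead, as the day block, which moved the calls of a smaller or larger gain than in WT to 82 and 1, against 3 and 0 without it. Depth limits the later days: 3 counts, the limit that a count of 0 allows, were 0.430 to 0.835 CPM in RepB at days 5 to 10 and 0.197 CPM at day 0.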

Other observations

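A group of 19 members was already away from balance in RepB at day 0, with a cas share under 25% or over 75%, and several of the abundant ones kept that side. Rps4x, a ribosomal protein gene with many copies in the genome, had 1.78% to 3.97% cas at days 5 to 10 and 4.37% at day 0, and WT had 6.36% ± 6.48 over days 5 to 10 and 3.67% at day 0. Cox7b, a subunit of cytochrome oxidase, had 8.63% ± 3.57 over days 5 to 10 and 7.05% at day 0 in RepB, and WT averaged 8.61% ± 1.13 over days 5 to 10. Rbbp7, a histone-binding protein, had 24.4% ± 7.72 over days 5 to 10 and 19.5% at day 0 in RepB, and 20.8% ± 7.84 over days 5 to 10 in WT. Pgk1, of glycolysis, had 99.3% ± 1.49 over days 5 to 10 and 96.1% at day 0 in RepB, and 99.3% ± 0.762 over days 5 to 10 in WT. Slc25a5, the mitochondrial ADP/ATP carrier, was less extreme and outside this group of 19. It had 28.2% ± 4.53 over days 5 to 10 and 31.5% at day 0 in RepB, and 30.4% ± 3.82 over days 5 to 10 in WT. None of these 5 passed the edgeR test for a gain, and the WT libraries showed the same side for each.

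A pair of extracellular matrix genes changed side outright. Bgn, the proteoglycan biglycan, had 6 cas and 841 mus counts at day 0 in RepB, no allelic count at day 5, and cas shares of 52.6%, 62.3%, 65.6% and 89.8% at days 6, 7, 8 and 10. In WT its cas share was 93.8% at day 10 and 0.438% at day 0. Col4a5, a chain of basement membrane collagen, had 0 cas counts of 22 at day 0 in RepB, and 92.9%, 98.5% and 91.5% at days 7, 8 and 10. The summed fibroblast and feeder markers stood at 65.4 CPM at day 5 and 14396 CPM at day 10 in RepB, against 872 CPM at day 0, and their part in these 2 genes was not tested.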
